A study of Glycine max with 4 samples.

Results

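The NAC transcription factors of soybean were examined in leaves deprived of phosphate (Pi) for 24 h. A locus counted as a NAC gene when it was a single annotated gene whose deposited description held the words NAC domain, NAC (No Apical Meristem), NAC transcription factor or NAC-like. This wording gave 129 of the 39505 loci detected. The wording uses no expression value, though the NAC genes were chosen with earlier results of these data known. NAC proteins are plant-specific transcription factors that bind DNA through a conserved N-terminal domain named after NAM, ATAF and CUC, and carry a variable C-terminal part that activates or represses transcription. In Arabidopsis, members of the family start or restrain leaf senescence, direct the secondary walls of xylem, set organ boundaries and answer stress. Some of them are held at a membrane and move to the nucleus once they are released.

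Seedlings of the cultivar Williams 82 were grown in hydroponics for 18 days and moved for 24 h to Pi-deficient solution with 0 µM KH2PO4 (Pi-deprived leaves, PDL) or to Pi-sufficient solution with 500 µM KH2PO4 (Pi-sufficient leaves, PSL). K2SO4 took the place of KH2PO4 in the Pi-deficient solution, so sulfate supply and Pi supply cannot be told apart in the comparison. The first trifoliate leaf was sequenced in 2 libraries per group, PDL-1 and PDL-2 and PSL-1 and PSL-2, each described as a biological replicate of 3 plants. The labels give the age as 18 days after germination, and all plants share a single genotype.

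Expression is given as FPKM, the number of fragments assigned to a locus after scaling to the length of its transcript and to the mapped fragments of the library, as the authors estimated it. FPKM values are scaled to transcript length, so levels of different genes can be set side by side. Over all loci, FPKM summed to 1939160 and 1833250 for the PDL libraries, against 1661720 and 2007430 for the PSL libraries. The mesophyll list (photosystem, chlorophyll-binding and Rubisco small subunit genes) summed to 271304 and 269801 FPKM in PDL, against 209677 and 233178 FPKM in PSL, so all 4 libraries carried leaf transcripts at a high level. Loci with a mean of at least 0.3 FPKM over the 4 libraries were tested with limma on log2(FPKM + 0.1), which understates the change of low genes. A gene was called higher or lower where the log2 fold change of PDL over PSL was at least 1 or at most -1 and the unadjusted p was at most 0.05. Of the 129 NAC genes, 93 passed the filter on low values, against 32686 of all loci.

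The 129 genes carried 36 different descriptions and lay on all 20 chromosomes, with spans of 244 to 7219 bp and a median of 2323 bp on Gmax2.0. A GO term for DNA binding was attached to 128 of them and a KEGG pathway to 0. In the PDL libraries 114 and 117 members were above 0 FPKM, and in the PSL libraries 117 and 112. At least 1 FPKM was reached by 68 and 66 members in PDL and by 67 and 68 in PSL. The number of NAC genes detected was thus similar in all 4 libraries.

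The 10 most abundant genes held 48.2% to 50.6% of the FPKM of the family in each library. Gm04g249000, described only by the family name (chromosome 4 of Gmax2.0, 51589060 to 51591220), was the most abundant, with 83.3 and 81 FPKM in PDL, against 68.7 and 90.2 FPKM in PSL. Gm06g114000, also described only by the family name, had 54.2 and 45.9 FPKM in PDL and 40.2 and 56.2 FPKM in PSL. For both of these genes both PDL values lay between the PSL values, with log2 fold changes of 0.06 (SE 0.17) and 0.07 (SE 0.21). Gm08g360200 names NAC 83, which in Arabidopsis (VNI2) acts in xylem and in leaf ageing, and had 43.4 and 49.9 FPKM in PDL against 50.7 and 52.7 FPKM in PSL. Gm20g192300 names NAC 50, which in Arabidopsis works with a histone demethylase, and had 30.8 and 31.7 FPKM in PDL against 32.5 and 35 FPKM in PSL. Gm16g043200 names NAC 47, which in Arabidopsis drives upward bending of the petiole, and had 29.3 and 28.3 FPKM in PDL against 34.4 and 33.1 FPKM in PSL. In these 3 genes both PDL libraries lay below both PSL libraries, with log2 fold changes of -0.15 (SE 0.12), -0.11 (SE 0.11) and -0.23 (SE 0.10), and none passed the thresholds.

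**Figure D1:**
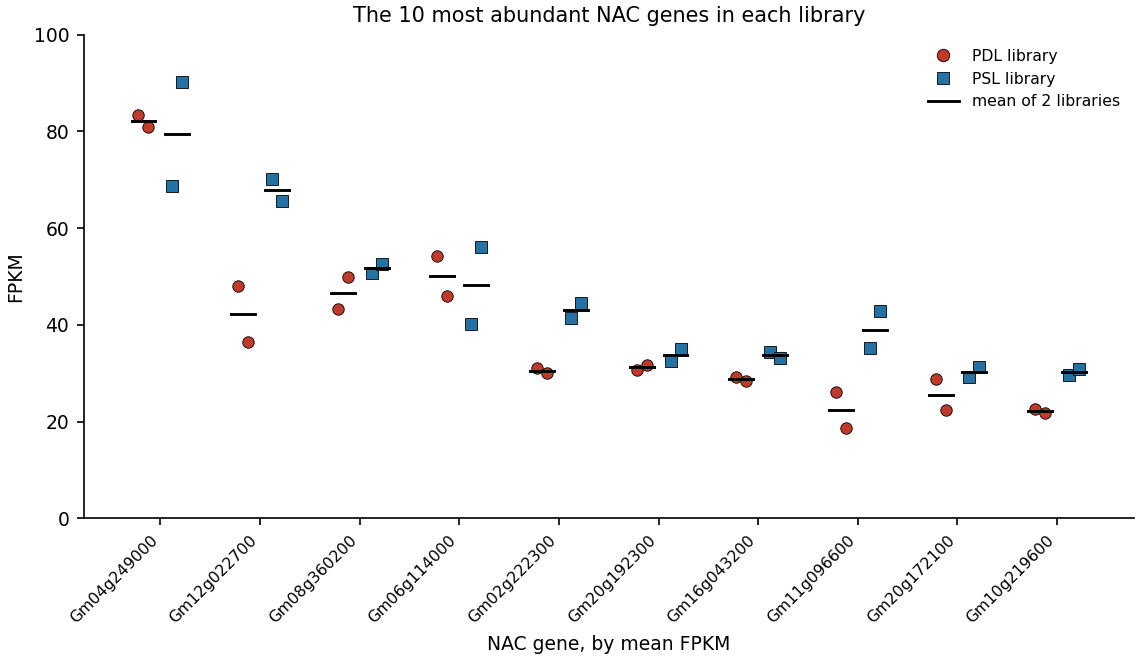
FPKM of the 10 NAC genes with the highest mean level, in each library (circles, PDL; squares, PSL; black bar, mean of the 2 libraries of a group). The groups are separate for 8 of the 10 genes, with PDL below PSL in each, while Gm04g249000 and Gm06g114000 overlap. Of all loci with a mean of 10 FPKM or more, 22.3% have both PDL libraries below both PSL libraries.

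Of the 93 NAC genes tested, 0 were higher and 2 were lower in PDL, and 91 did not pass the thresholds. Over all loci tested, 1.14% were called higher and 0.887% lower, and at this background 2 of 93 genes is too few to read as a result about the family. By unadjusted p at most 0.05 alone, with no fold limit, 14 NAC genes (15.1%) were below PSL and 0 above it, against 4.29% and 4.64% of all loci. After Benjamini-Hochberg adjustment over all loci, limma gave the NAC genes adjusted p from 0.451 to 0.995, so none reached 0.05, as 0.0581% of all loci did. The count lower in PDL was 4 of 94 without PDL-1 (2.10% of all loci), and the count higher was 1 of 94 without PDL-1 (1.54%) and 2 of 94 without PSL-1 (2.44%).

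Most NAC genes had a PDL level slightly below the PSL level, by less than the fold threshold. Both PDL libraries lay below both PSL libraries for 40 of the 93 genes (43%), against 21.1% of all loci tested. The opposite order, both PDL libraries above both PSL libraries, was found for 3 genes (3.23%), against 20.2% of all loci. The log2 fold change was below 0 for 68 genes (73.1%), against 51.4% of all loci, and its median was -0.25 against -0.01. The median without PDL-2 was -0.14, with -0.02 for all loci. The typical SD between replicates was 0.27 on the log2 scale for single NAC genes and 0.20 for single loci of the whole table. These are counts and medians of the family with no test of their own.

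**Figure D2:**
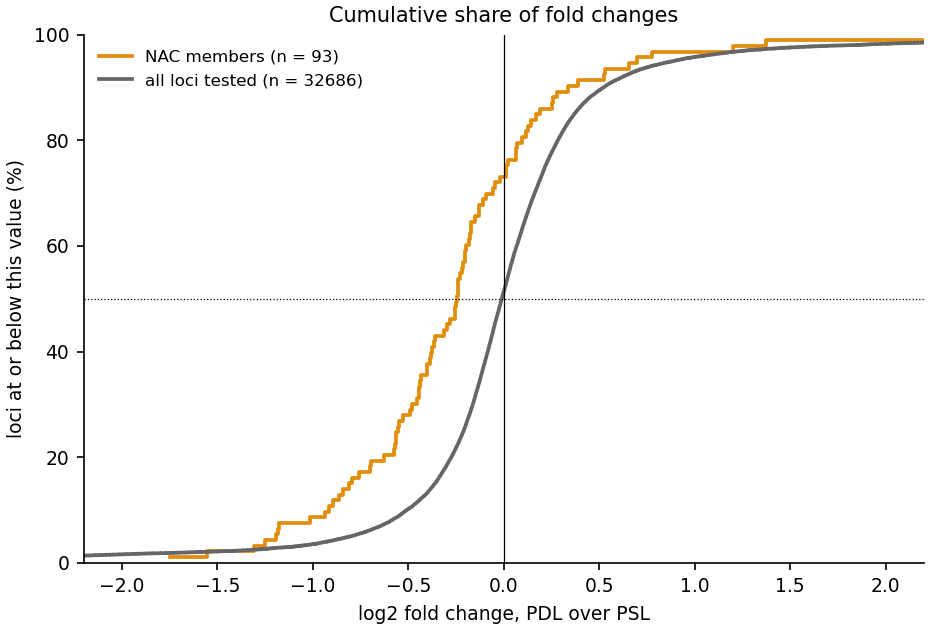
Cumulative share of log2 fold changes of PDL over PSL for the 93 NAC genes tested and for all 32686 loci tested. The curve of the NAC genes lies to the left, crossing 50% at -0.25 and reaching 73.1% at 0, where all loci reach 51.4%.

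The same order of groups was seen at each level of expression. Among the 27 NAC genes with a mean of 10 FPKM or more, 14 (51.9%) had both PDL libraries below both PSL libraries, against 22.3% of all loci of that level, and the median log2 fold change was -0.23 against 0.00. From 1 to under 10 FPKM this held for 17 of 43 genes (39.5%, against 21.6%), with a median of -0.24 against -0.03. From 0.3 to under 1 FPKM it held for 9 of 23 genes (39.1%, against 15.8%), with a median of -0.53 against 0.01. The 36 NAC genes under 0.3 FPKM were not tested.

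**Figure D3:**
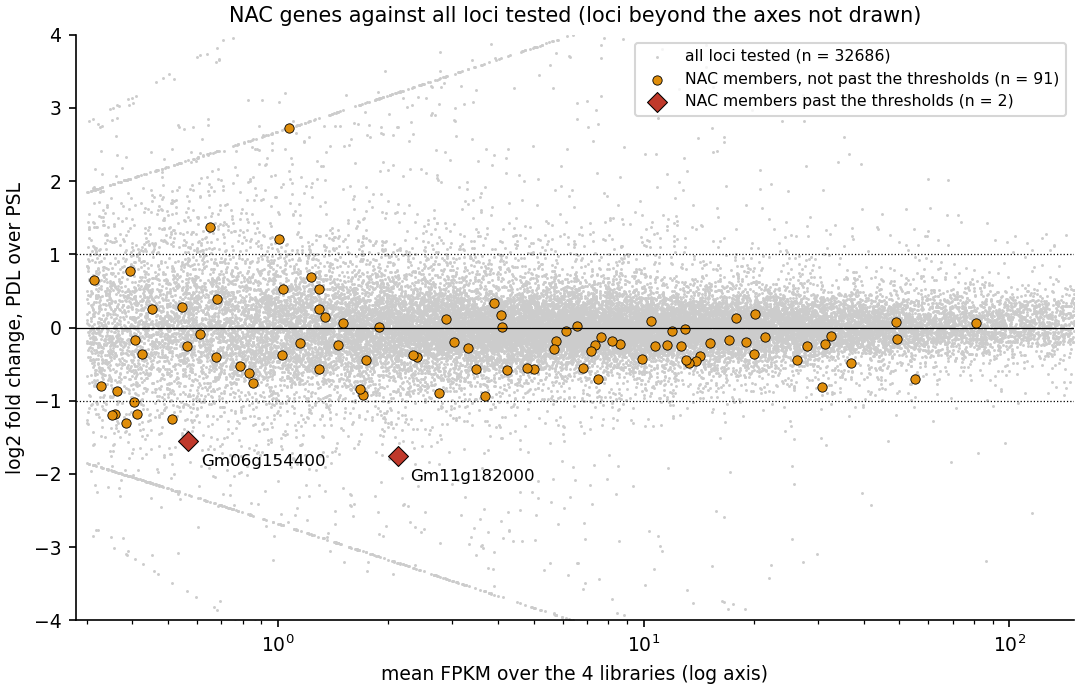
Log2 fold change of PDL over PSL against the mean FPKM of the 4 libraries (log axis) for all loci tested (grey), NAC genes not past the thresholds (orange) and the 2 NAC genes past them (red diamonds). Both called genes lie under 3 FPKM, and the abundant NAC genes lie within 1 log2 unit of 0.

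Summed over the family, NAC transcripts came to 804 and 760 FPKM in PDL, against 891 and 954 FPKM in PSL, which gives a ratio of means of 0.848. The groups did not overlap, though an exact test of 2 against 2 libraries cannot go below p = 0.333. Without the 10 most abundant genes the sums were 406 and 394 FPKM in PDL and 459 and 472 FPKM in PSL. Scaled to an equal total FPKM of all loci in each library (1000000), the family took 415 and 415 FPKM in PDL, against 536 and 475 FPKM in PSL. The sum of the mesophyll list differed in the opposite direction, with a ratio of 1.22, and 118 of its 145 tested loci (81.4%, against 20.2% of all loci) had both PDL libraries above both PSL libraries, with a median log2 fold change of 0.30 and 0 loci past the thresholds. Both PDL libraries also lay above both PSL libraries for 5 of 7 tested markers of dividing cells (71.4%, against 20.2% of all loci). Their median log2 fold change was 0.33, with 0 past the thresholds. In a list of guard cell genes that also took in stomagen, this order was found for 3 of 6 tested (50%). The median was 0.59 and 2 were higher (1.14% of all loci). Both of those, Gm18g152800 and Gm08g345100, are described as stomagen, a signal peptide rather than a marker of guard cells. For markers of phloem and root the same order was found for 2 of 24 (8.33%) and 0 of 8. The opposite order was found for 4 phloem markers (16.7%) and 3 root markers (37.5%), against 21.1% of all loci. Their medians were -0.06 and -0.17, with 1 locus lower in each list (0.887% of all loci). The root locus joins Gm08g198000 and Gm08g198100, described as root hair specific 16 and a leucine-rich repeat kinase, so its value is not that of a single gene. FPKM is relative to the library, and the part of these cell types in the NAC values was not tested. In whole leaves, fewer cells of a type and less RNA per cell cannot be told apart.

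The lowest p in the family belonged to Gm11g182000, which names NAC 90. In Arabidopsis NAC 90 restrains leaf senescence and salicylic acid responses. Its locus is 24908634 to 24909881 on chromosome 11 of Gmax2.0. Expression was 0.942 and 0.883 FPKM in PDL, against 2.84 and 3.85 FPKM in PSL. Both PDL libraries lay under 1 FPKM and both PSL libraries well above it, and the gene fell in PDL with a log2 fold change of -1.75 (SE 0.26, unadjusted p 0.0019, limma adjusted p = 0.451). It stayed past the thresholds under every one of 14 alternative settings, with log2 fold changes of -1.96 to -1.17.

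The other 4 genes that name NAC 90 did not pass the thresholds. Gm03g197900 was the most abundant of them, with 13.9 and 8.54 FPKM in PDL against 17.1 and 13.6 FPKM in PSL (log2 fold change -0.48, SE 0.29). Gm13g315300 had 3.13 and 2.40 FPKM in PDL against 3.41 and 4.94 FPKM in PSL (-0.57, SE 0.27). The PDL values of Gm03g197900 overlapped those of PSL by a narrow margin, and those of Gm13g315300 did not overlap. Gm12g186200 had 1.77 and 0.768 FPKM in PDL against 0.969 and 0.626 FPKM in PSL, and Gm12g091200 had 0.507 and 1.35 FPKM in PDL against 1.27 and 0.988 FPKM in PSL. Both overlapped between the groups, with log2 fold changes of 0.53 (SE 0.52) and -0.38 (SE 0.54).

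The second gene past the thresholds was Gm06g154400, which names xylem NAC domain 1 (XND1). In Arabidopsis XND1 restrains secondary wall formation and vessel differentiation in xylem. Its locus is 12584647 to 12585706 on chromosome 6 of Gmax2.0. Expression was 0.261 and 0.215 FPKM in PDL, against 0.759 and 1.04 FPKM in PSL. The groups did not overlap, and the gene fell in PDL with a log2 fold change of -1.55 (SE 0.50, unadjusted p 0.034, limma adjusted p = 0.545). At these low levels the call was lost without PDL-2 (unadjusted p 0.059 in limma), without PSL-2 (0.054), with the replicate number as a block (0.081) and with a pseudocount of 1, which gave a log2 fold change of -0.61.

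The other XND1 genes varied more between replicates than between groups. Gm08g075300 had 2.22 and 0.404 FPKM in PDL against 1.28 and 2.92 FPKM in PSL. Gm05g120500 had 1.26 and 0.410 FPKM in PDL against 0.936 and 0 FPKM in PSL, the 0 being a listed value in PSL-2. Gm05g192500 had 0.652 and 0.352 FPKM in PDL against 0.820 and 0.428 FPKM in PSL. In all 3 genes the groups overlapped, with log2 fold changes of -0.92 (SE 0.88), 1.37 (SE 1.36) and -0.26 (SE 0.58).

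NAC transcription factor-like 9 (NTL9) and NAC 62 were named by 10 genes, with log2 fold changes of -0.94 to -0.05. NTL9 is known in Arabidopsis as a calmodulin-binding factor that acts in stomatal immunity, and NAC 62 (NTL6) as a membrane-tethered factor that is released under stress. This set was singled out after its values were seen. All 8 NTL9 genes had log2 fold changes below 0 (median -0.51), and 0 passed the fold threshold. Both PDL libraries lay below both PSL libraries for 7 of them (87.5%, against 21.1% of all loci). An unadjusted p of at most 0.05 in limma was found for 5 (62.5%, against 4.29% of all loci). With the 2 NAC 62 genes, 9 of 10 genes (90%) had separate groups. Without these 10 genes, both PDL libraries lay below both PSL libraries for 31 of 83 tested genes (37.3%, against 21.1% of all loci). The median log2 fold change of these 83 genes was -0.23.

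Gm02g222300 was the most abundant NTL9 gene (chromosome 2, 40991361 to 40994993), with 31.1 and 30.1 FPKM in PDL against 41.5 and 44.6 FPKM in PSL. Gm14g189300 had 17.6 and 17.6 FPKM in PDL against 22.4 and 22.7 FPKM in PSL. Replicates of these genes were close and the groups clearly apart, with log2 fold changes of -0.49 (SE 0.11, limma adjusted p = 0.480) and -0.36 (SE 0.10, limma adjusted p = 0.527). Gm04g226700 had 12.4 and 10.8 FPKM in PDL against 14.1 and 13.4 FPKM in PSL. Gm06g138100 had 11.8 and 11.7 FPKM in PDL against 12.6 and 11.7 FPKM in PSL and was the only NTL9 gene whose groups overlapped.

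The other 4 NTL9 genes and both NAC 62 genes lie in 2 arrays of neighbours, each with a NAC 62 gene followed by a pair of NTL9 genes in order of position. The array on chromosome 7 runs from 4016456 to 4044625 with gaps of 7230 and 12391 bp, and the array on chromosome 16 from 1431646 to 1463653 with gaps of 17272 and 4241 bp. On chromosome 16, Gm16g016600 had 2.38 and 2.61 FPKM in PDL against 5.13 and 4.61 FPKM in PSL (log2 fold change -0.94, SE 0.17, limma adjusted p = 0.471). Its neighbour Gm16g016700 had 6.16 and 5.21 FPKM in PDL against 9.57 and 8.99 FPKM in PSL (-0.70, SE 0.15). The NAC 62 gene of that array, Gm16g016400, had 4.68 and 3.13 FPKM in PDL against 5.77 and 5.57 FPKM in PSL (-0.55, SE 0.24). In all 3 genes the lowest PSL value lay above the highest PDL value. On chromosome 7, Gm07g048000 had 2.13 and 1.69 FPKM in PDL against 3.86 and 3.38 FPKM in PSL (-0.89, SE 0.21). Gm07g048100 had 0.622 and 0.629 FPKM in PDL against 0.931 and 0.960 FPKM in PSL, and the NAC 62 gene Gm07g047900 had 0.511 and 0.628 FPKM in PDL against 0.701 and 0.872 FPKM in PSL. Thus all 6 genes of the arrays had separate groups with PDL the lower, an order found for 21.1% of all loci. Their median log2 fold change was -0.63, with 0 past the thresholds. Genes of an array may be close copies, and reads that map to more than 1 of them may have been shared out, so their values may not be independent.

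**Figure D4:**
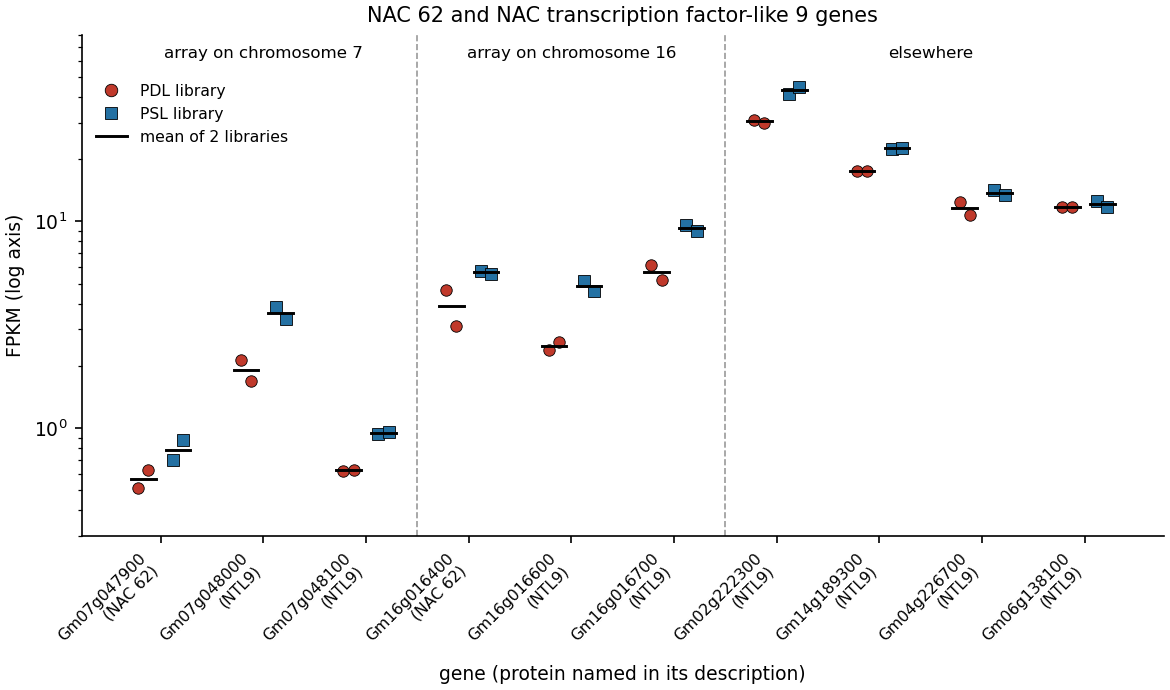
FPKM (log axis) of the 8 NTL9 genes and the 2 NAC 62 genes in each library (circles, PDL; squares, PSL; black bar, mean of the 2 libraries of a group), ordered by array. PDL lies below PSL without overlap for all 6 genes of the arrays and for 3 of the 4 genes elsewhere, against 21.1% of all loci.

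Membrane-bound and organelle stress factors, to which these genes belong, held 16 genes, all of them tested. Of these 11 (68.8%, against 21.1% of all loci) had both PDL libraries below both PSL libraries, 9 of them from the NTL9 and NAC 62 set singled out after its values were seen. In the group 0 had the opposite order (against 20.2% of all loci), 0 passed the thresholds and the median log2 fold change was -0.38. NAC 17, a factor anchored in the endoplasmic reticulum that carries mitochondrial stress signals in Arabidopsis, was named by 2 genes. Gm10g219600 had 22.6 and 21.8 FPKM in PDL against 29.6 and 30.9 FPKM in PSL (-0.45, SE 0.10, limma adjusted p = 0.499). Gm20g172100 had 28.7 and 22.5 FPKM in PDL against 29.3 and 31.4 FPKM in PSL (-0.26, SE 0.16). Both genes had separate groups, by a wide margin for Gm10g219600 and a narrow one for Gm20g172100. NAC 82, which in Arabidopsis mediates the response to ribosomal stress, was named by 3 genes with log2 fold changes of -0.13 to 0.09. The most abundant of them, Gm06g152900, had 19.6 and 21.3 FPKM in PDL against 21.2 and 23.6 FPKM in PSL, with overlapping groups.

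The senescence group, built on the Arabidopsis genes NAC 42, NAC 83, NAC 87, NAC 90 and NAP, held 24 genes, of which 20 were tested. Gm11g182000 was the 1 gene lower and 0 were higher, against 0.887% and 1.14% of all loci. In the group 8 genes (40%, against 21.1% of all loci) had both PDL libraries below both PSL libraries. The opposite order was found for 0, against 20.2% of all loci, and the median log2 fold change was -0.38. NAP (NAC-like, activated by AP3/PI), which promotes leaf senescence in Arabidopsis, was named by 3 genes. Gm01g051300 had 5.05 and 6.05 FPKM in PDL against 8.41 and 7.87 FPKM in PSL (-0.55, SE 0.16, limma adjusted p = 0.524). Gm02g109800 had 7.04 and 9.76 FPKM in PDL against 10.0 and 12.6 FPKM in PSL (-0.44, SE 0.23), and Gm07g229100 had 4.31 and 4.28 FPKM in PDL against 4.31 and 3.36 FPKM in PSL (0.17, SE 0.19). The groups were separate for the first pair of NAP genes and overlapped for Gm07g229100.

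Both activators and restrainers of senescence stand in this group, so its median has no single direction in terms of leaf ageing. Among the NAC 83 genes, Gm18g301500 had 9.04 and 16.1 FPKM in PDL against 14.5 and 17.2 FPKM in PSL, and Gm17g185000 had 11.6 and 8.08 FPKM in PDL against 10.0 and 13.2 FPKM in PSL. Gm19g097700, the NAC 83 gene with the most positive value, had 1.65 and 1.34 FPKM in PDL against 1.39 and 0.546 FPKM in PSL (0.70, SE 0.50). All 3 of these genes had overlapping groups. NAC 87, which in Arabidopsis takes part in chlorophyll breakdown and root cap cell death, had 3 tested genes. Gm16g042900 had 1.13 and 1.21 FPKM in PDL against 2.24 and 2.12 FPKM in PSL (-0.84, SE 0.22, limma adjusted p = 0.519), and Gm19g109100 had 0.162 and 0.194 FPKM in PDL against 0.547 and 0.632 FPKM in PSL (-1.31, SE 0.61, limma adjusted p = 0.614). Both had separate groups, but Gm16g042900 missed the fold threshold and Gm19g109100 missed the threshold on p. Gm19g109100 passed with no mean-variance trend, with no filter, and with only loci above 0 FPKM in all 4 libraries (added after seeing the data). NAC 42 (JUB1), a longevity factor in Arabidopsis, had 4 genes, and the lowest log2 fold change among them belonged to Gm14g030700, with 0.0876 and 0.284 FPKM in PDL against 0.603 and 0.434 FPKM in PSL (-1.19, SE 0.75).

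Outside the family, 40 tested genes were described by senescence or chlorophyll breakdown. Of these, 1 was higher and 0 were lower in PDL, against 1.14% and 0.887% of all loci. Both PDL libraries lay below both PSL libraries for 12 (30%, against 21.1% of all loci) and above them for 7 (17.5%, against 20.2%). The log2 fold change was below 0 for 22 and above 0 for 18, with a median of -0.07. The called gene was Gm19g098500 (senescence-related gene 3), with 2.53 and 1.24 FPKM in PDL against 0.201 and 0.0640 FPKM in PSL (3.08, SE 0.63, limma adjusted p = 0.471).

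The secondary wall and vascular group, built on XND1, NAC 73 (SND2 in Arabidopsis, an activator of secondary wall genes) and NAC 75, among others, held 19 genes, of which 14 were tested. Gm06g154400 was the 1 gene lower and 0 were higher, against 0.887% and 1.14% of all loci. Both PDL libraries lay below both PSL libraries for 2 genes (14.3%), a smaller share than the 21.1% of all loci, and the median log2 fold change was -0.33. Most of these genes were low and their replicates spread widely. Gm07g201800 (NAC 73) was the most abundant, with 2.41 and 1.71 FPKM in PDL against 2.93 and 2.52 FPKM in PSL (-0.40, SE 0.25). Gm13g174700 had 1.35 and 0.780 FPKM in PDL against 1.54 and 0.934 FPKM in PSL, and Gm15g078300 had 0.982 and 0.363 FPKM in PDL against 0.880 and 1.12 FPKM in PSL. Groups were separate for Gm07g201800 and overlapped for Gm13g174700 and Gm15g078300.

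Other NAC 73 genes show how little such levels can hold. Gm12g206900 had 0.492 and 0 FPKM in PDL against 0.187 and 0.964 FPKM in PSL, and Gm12g118700 had 0.473 and 0 FPKM in PDL against 0.269 and 0.696 FPKM in PSL. Both were listed at 0 in PDL-2, and their log2 fold changes of -1.18 (SE 1.30) and -1.18 (SE 1.18) were about the size of their errors. Without PDL-2 these values were 0.10 and 0.08.

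Among 30 tested genes of the secondary wall itself, 1 was higher and 1 lower in PDL, against 1.14% and 0.887% of all loci. Both PDL libraries lay above both PSL libraries for 8 (26.7%, against 20.2% of all loci) and below them for 3 (10%, against 21.1%). The median log2 fold change was 0.24. Gm04g014700 (xylem cysteine peptidase 2, a protease of dying xylem cells) was the gene higher, with 2.00 and 1.62 FPKM in PDL against 0.768 and 0.687 FPKM in PSL (1.20, SE 0.29, limma adjusted p = 0.503). Gm11g074100 (ferulic acid 5-hydroxylase 1, an enzyme of lignin synthesis) was lower, with 0.889 and 0.824 FPKM in PDL against 1.83 and 2.83 FPKM in PSL (-1.32, SE 0.31, limma adjusted p = 0.501). The list of xylem markers overlaps with that of the secondary wall. Of its 17 tested genes 1, again Gm04g014700, was higher and 0 were lower, against 1.14% and 0.887% of all loci. Both PDL libraries lay above both PSL libraries for 7 (41.2%, against 20.2% of all loci) and below them for 1 (5.88%, against 21.1%). The median log2 fold change was 0.82, and the part of xylem cells in the XND1 values was not tested.

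The boundary and organ growth group held 15 genes, of which 8 were tested. None passed the thresholds, and 4 (50%, against 21.1% of all loci) had both PDL libraries below both PSL libraries. The opposite order was found for 1 (12.5%, against 20.2% of all loci), and the median log2 fold change was -0.27. Its leading members were the pair of NAC 36 genes, whose Arabidopsis counterpart gives small leaves when overexpressed. Gm12g022700 (chromosome 12, 1660946 to 1662889) had 48.1 and 36.4 FPKM in PDL against 70.2 and 65.7 FPKM in PSL (-0.70, SE 0.17, limma adjusted p = 0.505). Gm11g096600 (chromosome 11, 7362536 to 7364263) had 26.2 and 18.7 FPKM in PDL against 35.2 and 42.9 FPKM in PSL (-0.81, SE 0.22, limma adjusted p = 0.522). Both genes had separate groups by a wide margin. NAC 35 (LOV1), which delays flowering in Arabidopsis, was named by a further pair of genes. Gm17g002800 had 19.2 and 23.9 FPKM in PDL against 20.2 and 17.5 FPKM in PSL (0.19, SE 0.17), and Gm07g271100 had 16.6 and 15.5 FPKM in PDL against 16.9 and 19.2 FPKM in PSL (-0.17, SE 0.13). The groups overlapped for Gm17g002800 and were barely apart for Gm07g271100. Of the 6 NAC 100 genes, targets of a microRNA in Arabidopsis, 1 passed the filter on low values.

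The chromatin group held 3 genes, NAC 50 and a pair of NAC 52 genes. Gm20g192500 (NAC 52) had 3.67 and 4.38 FPKM in PDL against 6.56 and 5.43 FPKM in PSL (-0.56, SE 0.18, limma adjusted p = 0.545). Gm10g197500 (NAC 52) had 6.76 and 6.51 FPKM in PDL against 6.60 and 6.48 FPKM in PSL (0.02, SE 0.13). Gm20g192500 had separate groups, while Gm10g197500 had nearly equal values in all 4 libraries.

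Genes described only by the family name lay evenly on both sides of 0. Of 23 such genes 16 were tested, 0 passed the thresholds, 5 (31.2%, against 21.1% of all loci) had both PDL libraries below both PSL libraries and 2 (12.5%, against 20.2%) the opposite order, 8 lay on each side of 0, and the median log2 fold change was 0.00. Gm13g030900 had 17.9 and 19.4 FPKM in PDL against 16.2 and 17.9 FPKM in PSL, and Gm06g157400 had 15.6 and 12.5 FPKM in PDL against 17.5 and 15 FPKM in PSL. Both were abundant and overlapped, with log2 fold changes of 0.13 (SE 0.12) and -0.21 (SE 0.17). Gm05g002700 had the most negative value of this group, with 0.318 and 0.204 FPKM in PDL against 0.590 and 0.946 FPKM in PSL (-1.25, SE 0.56, limma adjusted p = 0.605). Its unadjusted p of 0.086 in limma missed the threshold. It passed with no mean-variance trend, with no filter, and with only loci above 0 FPKM in all 4 libraries (added after seeing the data). The study, using Cuffdiff, listed this gene and Gm11g182000 among its genes lower in PDL.

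This group also held the most positive value of the family, followed by that of Gm05g120500 (XND1) above and then by Gm08g169500 of this group. Gm08g169400 was listed at 0 in PDL-1, PSL-1 and PSL-2 and at 4.30 FPKM in PDL-2. It spans 244 bp and lies 879 bp from Gm08g169500, which had 1.26 and 1.55 FPKM in PDL against 0.926 and 0.311 FPKM in PSL (1.20, SE 0.56, limma adjusted p = 0.614). The value of Gm08g169400 thus rests on 1 library, while the groups of Gm08g169500 were separate. The other genes with both PDL libraries above both PSL libraries were Gm12g149100, with 1.48 and 1.60 FPKM in PDL against 1.04 and 1.04 FPKM in PSL (0.53, SE 0.25), and Gm04g078600 (NAC 38), with 0.409 and 0.637 FPKM in PDL against 0.203 and 0.322 FPKM in PSL (0.78, SE 0.62). None of these genes passed the thresholds.

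**Figure D5:**
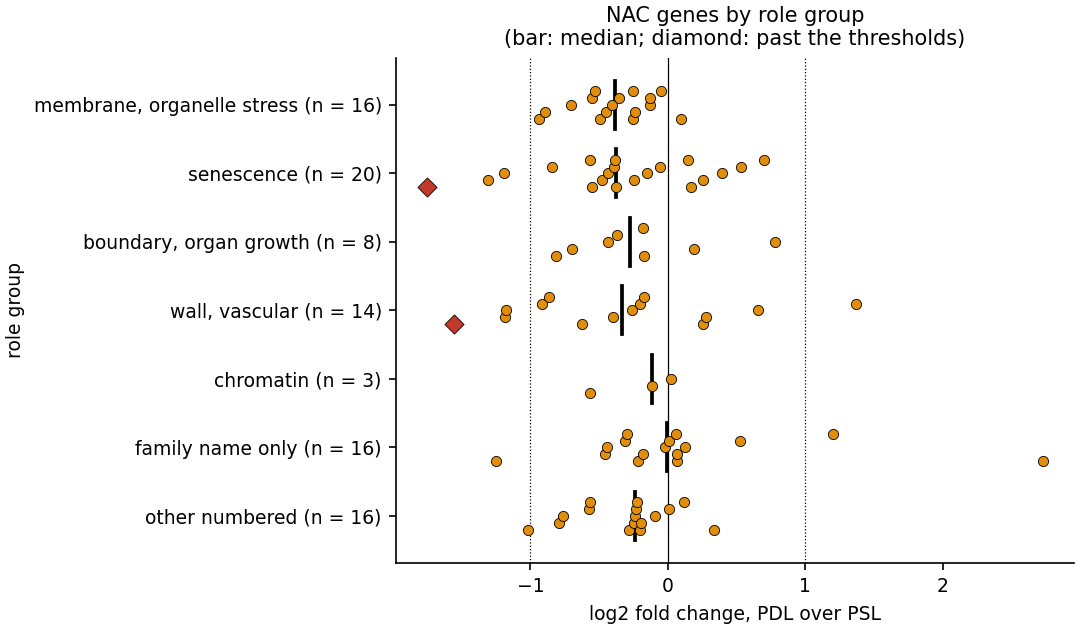
Log2 fold change of PDL over PSL of each tested NAC gene by role group (circles, not past the thresholds; red diamonds, past them; black bar, group median; dotted lines, -1 and 1). Group medians lie between -0.38 and 0.00, and the 2 genes past the thresholds belong to the senescence and the wall and vascular groups.

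The remaining numbered NAC genes, for which no role was assigned, held 29 genes, of which 16 were tested. Both PDL libraries lay below both PSL libraries for 8 of them (50%, against 21.1% of all loci). The opposite order was found for 0 (against 20.2% of all loci), 0 passed the thresholds and the median log2 fold change was -0.24. Neighbouring NAC genes were frequent on the chromosomes. Within 100000 bp of each other there were 16 pairs of adjacent members, among them 4 pairs of a NAC 47 gene and a NAC 87 gene on chromosomes 2, 16 and 19. In the pair 24107 bp apart on chromosome 16, Gm16g043200 (NAC 47) and Gm16g042900 (NAC 87) both had separate groups, although their mean levels differed widely. In the pair on chromosome 19, Gm19g108800 (NAC 47) had 4.46 and 3.78 FPKM in PDL against 3.85 and 4.31 FPKM in PSL, with overlapping groups, while its neighbour Gm19g109100 had separate ones.

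NAC proteins whose descriptions use other words, such as the vascular-related VND genes, NAC 007 and NTM1-like 8, were counted apart. Of 18 such loci 8 were tested, and 0 passed the thresholds in either direction. Both PDL libraries lay below both PSL libraries for 1 of them (12.5%), against 21.1% of all loci and 43% of the NAC genes tested. The opposite order was found for 0, against 20.2% of all loci, and the median log2 fold change was -0.15. The most abundant, Gm10g235200 (VND6, a switch for vessel formation in Arabidopsis), had 11.8 and 14.7 FPKM in PDL against 10.6 and 13.4 FPKM in PSL (0.14, SE 0.20). Gm12g186900 (NTM1-like 8) was the gene with separate groups, with 7.99 and 7.37 FPKM in PDL against 8.42 and 8.87 FPKM in PSL (-0.17, SE 0.13).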

How the data were processed

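Leaf RNA was sequenced in 2 PDL and 2 PSL libraries as paired-end reads, and groups were taken from the sample labels. Read filtering by the authors used the FASTX-toolkit and FastQC. Mapping to Gmax2.0 used TopHat with Bowtie2, loci came from Cufflinks, and Cuffdiff was the authors' test. Versions are not given in the sources used here, and the kit is not stated to keep strand. The deposited values are FPKM per locus and library. No gene has a counting error in the text, because read counts per locus were not part of the values used. Reads shared by close copies may have been split between them. The authors' own comparison columns (pooled FPKM per group, log2 fold change, the test score, p-value and q-value of Cuffdiff) were deposited too and were not used.

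Loci with a mean of at least 0.3 FPKM were tested with limma 3.58.1 (R 4.3.3) after the log2 step, log2(FPKM + 0.1) (lmFit, eBayes with the mean-variance trend, two-sided, no covariate, Benjamini-Hochberg adjustment over 32686 loci). The thresholds on fold change and p are those of the study's methods. limma took the place of Cuffdiff because read counts were not used. SE is limma's standard error of the log2 fold change. Loci under 0.3 FPKM appear to rest on few reads: among 2336 loci that low in PDL-1 and PDL-2, the most frequent log2 ratio of PDL-1 over PDL-2 (514 loci) was 0.3 to 0.4. The test was tried on simulated data with a spread taken from the replicates. At an absolute log2 fold change of 1.5 it recovered 48 of 50 changed loci. It also called 358 of 32486 unchanged loci past the thresholds. Counts and figures used matplotlib 3.10.9, pandas 2.3.3, scipy 1.17.1 and numpy 2.4.6 under Python 3.11.15.

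Genes named with values were those past the thresholds, the 10 highest by mean FPKM, the 5 largest and 5 smallest log2 fold changes not past the thresholds, up to 4 of each role group by level and up to 5 listed at 0 in 1 library. Others were chosen after their values were seen. Role groups and lists are word patterns on the descriptions, and the NAC genes, lists and tests were chosen with earlier results of these data known. The pattern for NAC genes described in other words was widened to capital letters after the table was seen. No NAC gene matched the lists of stress factors of the ATAF type and of root cap factors. A gene described only by the family name could not match them, so this does not show that such factors were absent. The alternatives were pseudocounts of 1 and 0.01, a filter at 1 FPKM and none, quantile normalization, median centring, no trend, a replicate block, leaving out each library, loci with 1 annotated gene only and, added after seeing the data, only loci above 0 FPKM in all 4 libraries. No sequence is shown, since 0 of 59048 entries of the RefSeq table carry the gene names used here.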

Additional observations from a re-analysis of the deposited data

How the results depend on the processing

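Over all loci the median difference was -0.02 to 0.00 in every setting, and 0 NAC genes had a limma adjusted p under 0.05 in any. Each count of calls is followed by the share of all loci called in that setting. The count higher in PDL was 1 with no filter on low values (1.48%) and 0 to 2 when 1 library was left out (1.54% to 2.44%). The count lower in PDL (2) was 1 with a filter at 1 FPKM (0.787%), 1 with a pseudocount of 1 (0.437%), 1 with the replicate block (0.896%), 4 with no mean-variance trend (0.997%), 5 with no filter (1.15%), 4 with only loci above 0 FPKM in all 4 libraries (0.920%, chosen after seeing the data) and 2 to 4 when 1 library was left out (1.44% to 2.10%). Replicates of the same number did not deviate together (r = -0.08 across loci), so the number was not treated as a pairing. Genes with both PDL libraries above both PSL libraries numbered 5 with median centring (5.38%, against 21.4% of all loci) and 5 with quantile normalization (5.38%, against 19.7%). With 1 library left out, which makes such an order more frequent for all loci (33.5% to 35.2%), they numbered 13 to 19, and those with PDL below PSL 47 to 59 (34.4% to 37.9% of all loci). The family median was -0.28 to -0.14 with 1 library left out, the -0.14 being without PDL-2. Of the named genes, the following changed sign only with 1 library left out, over these ranges of log2 fold change: Gm04g249000 -0.13 to 0.26, Gm05g120500 -0.31 to 3.06, Gm06g114000 -0.17 to 0.31, Gm08g075300 -2.02 to 0.19, Gm10g197500 -0.0065 to 0.046, Gm12g118700 -2.44 to 0.081, Gm12g206900 -2.47 to 0.10, Gm13g174700 -0.57 to 0.16, Gm17g185000 -0.51 to 0.013 and Gm18g301500 -0.80 to 0.025. Where a setting changed a value, the cause was not tested. With 2 libraries per group and no read counts, the counting error of genes under 1 FPKM could not be given.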
